A study of Homo sapiens with 8 samples.

Results

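The human ovarian cancer line A2780 was compared at 46 °C (hyperthermia) and at 37 °C (control), across every gene the array could measure in it. The cells were chosen by their labels: 2 hyperthermia arrays and 2 control arrays of A2780, 4 of the 8 arrays of the study. The other 4 arrays hold SKOV3, a second ovarian cancer line, at the same temperatures with 2 samples each. No group carried a genetic change or a drug in the labels, and temperature was the only stated difference within a line. Amplified RNA carrying biotin had been hybridised to Illumina BeadChips, so each value is a probe brightness. Exposure length and harvest time are not in the labels. They also do not tell separate cultures from repeat samples of 1 culture. The p-values therefore measure the spread between these samples, which may be technical.

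Cells meet heat with several programmes that are largely separate. Heat-shock factor HSF1 switches on chaperones, which refold damaged proteins. Stress-activated MAP kinases switch on immediate early genes within minutes, among them the AP-1 factors of the FOS and JUN families. Kinases that phosphorylate eIF2α slow translation and raise ATF4 and its targets, the integrated stress response. Heat also disturbs the nucleolus and splicing, and many ordinary messages are transcribed less while it lasts.

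A2780 is labelled as an ovarian cancer cell type, and most epithelial markers were not above background. A marker was counted as above background where any probe of its gene was. Of 12 epithelial markers on the array, EPCAM and MUC1 were above background on all 4 arrays. The brightest EPCAM probe lay near it, at 6.642 and 6.446 at 37 °C, where background was 6.43 and 6.371. At 46 °C this probe read 6.655 and 6.37, the second under the background of 6.469 and 6.481. The other 10 epithelial markers (CDH1, PAX8 and ESRP1, keratins and claudins) were above background on none of the arrays. Of 12 mesenchymal markers, 10 were above background on all 4 arrays, among them vimentin (VIM), whose normalized log2 intensity was 13.91 to 14.14. All 7 endothelial markers were at background. Of 11 leukocyte markers on the array, CD68, a macrophage gene, was above background on all 4 arrays, 7 including PTPRC were so on none, and CD14 is described among the rises.

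Array brightness was uneven in A2780. The median probe signal was 136.4 and 143.9 at 37 °C and 135.6 and 113.7 at 46 °C. The upper quartile was 243.1 on control 1 and 317.1 on control 2, against 214.9 and 181 at 46 °C. Control 2 also had 41.93% of its probes above background, where the other 7 arrays had 36.91% to 39.08%. After quantile normalization the SD of the log2 difference between the 2 controls was 0.252 over all genes, and 0.198 between the hyperthermia arrays. In SKOV3 it was 0.181 between the controls and 0.261 between the hyperthermia arrays.

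Changes below are differences of normalized log2 intensity, 46 °C minus 37 °C, so that 1 is a 2-fold change, with the SE of the limma fit after ± (n = 2 per group). A gene rose or fell where the limma p, adjusted by Benjamini-Hochberg over 14189 genes, was under 0.05. In A2780, 641 genes changed, 4.52% of those tested: 316 rose (2.23%) and 325 fell (2.29%). In each of the 641 the values at the 2 temperatures did not overlap. With 2 values per group this largely follows from passing the test, so it adds no separate support. The rises were larger: 111 reached 2-fold, against 29 of the falls. The median change was 0.812 among genes that rose and -0.663 among those that fell. The genes that rose had a median level of 7.39 at 37 °C, and those that fell 8.96. Of the genes that rose, 55 were not above background on either control array. In bulk samples, fewer cells holding a transcript and less of it per cell cannot be told apart.

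**Figure D1:**
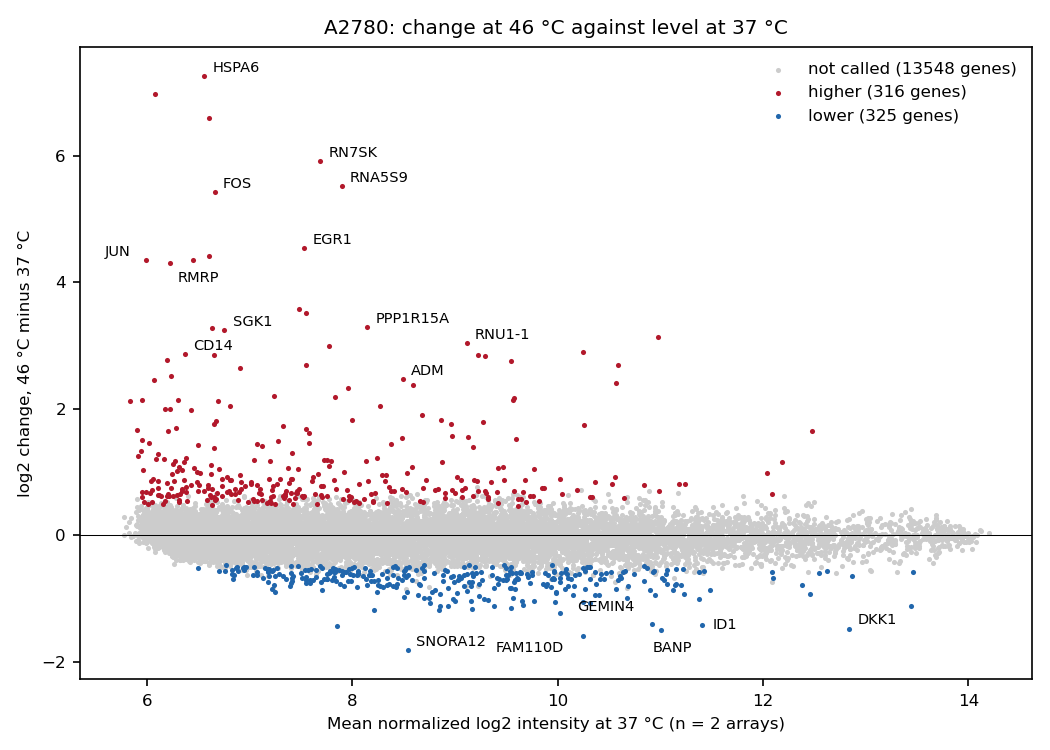
Each point is 1 of the 14189 genes tested in A2780, with its mean normalized log2 intensity at 37 °C on the x axis and its log2 change at 46 °C on the y axis. Rises (red, 316 genes) reach far from 0 mostly at low starting levels, and falls (blue, 325 genes) reach no lower than -1.82.

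The small falls rest on few arrays. Of the 325 genes that fell, 54 (16.6%) were still called with each of the 4 A2780 arrays left out in turn, against 134 of the 316 that rose (42.4%). Together they are 188 genes, 1.32% of those tested. Among the larger changes the share was higher, with 107 of the 111 rises and 26 of the 29 falls. Without the bright control 2, 183 genes rose and 136 fell. Without control 1, the counts went up to 522 and 631. Without hyperthermia 1 they were 149 and 91, and without hyperthermia 2 they were 179 and 83.

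The direction of small changes also depends on how the arrays are made equal. Quantile normalization gives every array the same distribution. Scaling each array to its median instead put the median gene of A2780 at -0.279, with 191 genes higher and 4399 lower. Without any normalization between arrays it was -0.385, with 129 higher and 5193 lower. With median scaling and control 2 left out, the median gene was still at -0.196, with 173 higher and 1521 lower. The changes below are therefore relative to the bulk of the genes, which sits at -0.0105 under quantile normalization.

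**Figure D2:**
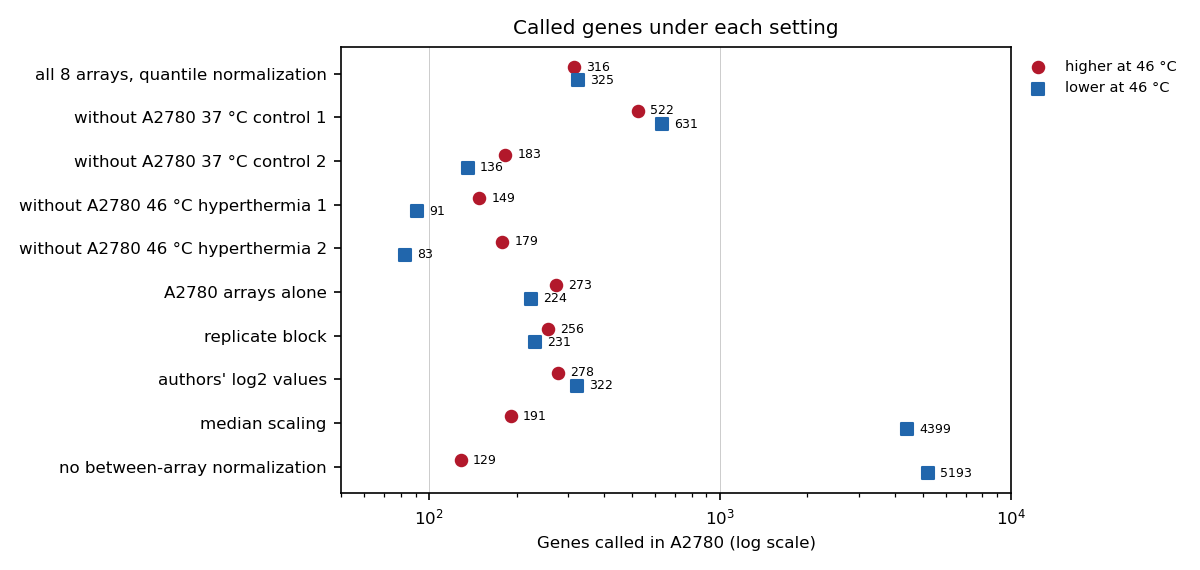
The number of genes called higher (red circles) and lower (blue squares) at 46 °C in A2780 is plotted on a log axis for 10 settings. The count of genes called higher stays between 129 and 522, while that of genes called lower runs from 83 to 5193 with the 2 highest counts under median scaling and without normalization.

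The stress-inducible HSP70 genes and their partner DNAJB1 led the chaperones. Of 26 heat-shock chaperone genes tested, 13 rose and none fell (15 and 0 at an unadjusted p under 0.05). Their median change was 0.522, against -0.0105 for all genes. The list is mainly of cytosolic chaperones, but also holds the mitochondrial HSPD1 and HSPE1, and HSPA7, classed as a transcribed pseudogene. HSPA6, an HSP70 made almost only under stress, was 6.55 and 6.55 at 37 °C and 13.82 and 13.81 at 46 °C. HSPA1A was 6.06 and 6.09, not above background, and then 13.10 and 13, at least 100.5-fold higher. HSPA7 is nearly identical to HSPA6 and HSPA1B to HSPA1A, so these probes may share signal. At 37 °C, where HSPA1A was not above background, HSPA1B read 10.93 and 11.01. How far the probes share signal was not tested. DNAJB1, the HSP40 partner of HSP70, went from 10.13 and 10.37 to 13.07 and 13.24 (2.90 ± 0.13, adjusted p = 6.16e-09).

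Past these best-known genes the chaperone response thinned quickly. HSPB1 (HSP27), a small heat-shock protein that holds unfolded proteins, went from 8.05 and 7.87 to 10.36 and 10.22 (2.33 ± 0.14). CRYAB, its relative, rose by 1.46 ± 0.14 from below background, at least 2.118-fold. The HSP110 gene HSPH1, a nucleotide exchange factor for HSP70, went from 12.25 and 11.83 to 12.93 and 13.11 (0.98 ± 0.17). HSP90AA1, the inducible HSP90, did not pass (0.10 ± 0.12), and neither did HSPA8, HSPD1, HSPE1 or HSP90AB1, which held between -0.15 and 0.33. These members were named after their values were seen. At 37 °C HSP90AA1 (13.75 and 13.64), HSPA8 (13.76 and 13.87) and HSPD1 (13.78 and 13.76) were already very bright. For comparison, the induced HSPA1B reached 14.11 and 14.10 at 46 °C. Whether a ceiling of the brightness scale hid a rise was not tested. HSPE1 differed more between the controls (13.23 and 12.51) than between the temperatures.

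The partners and regulators of the chaperones moved little. Of 27 chaperone partners and stress ubiquitin genes, 2 rose and 1 fell. BAG3, which links HSP70 to autophagy, went from 10.37 and 10.14 to 12 on each hyperthermia array (1.74 ± 0.13), and ZFAND2A, an arsenite-inducible proteasome partner, rose by 1.39 ± 0.13. AHSA2P fell by 0.47 ± 0.12 and lost its call with each of the 4 A2780 arrays left out. None of 12 heat-shock factors and their regulators was called (1 higher and 1 lower at an unadjusted p under 0.05). HSF1 itself was 6.5 and 6.87 at 37 °C and 6.64 and 6.57 at 46 °C, with values that overlap.

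The group with the highest median was that of RNAs that are not translated and normally carry no poly(A) tail. In a list of 26 RNA polymerase III transcripts, small nuclear RNAs and ribosomal RNAs, 22 rose and none fell (24 and 0 at an unadjusted p under 0.05). Their median change was 2.16, and 1.82 with median scaling. Of the 22, 19 were called with every A2780 array left out in turn. The amplification kit named in the labels primes cDNA on poly(A) with oligo(dT), so for such RNAs a brightness is not a measure of total amount. Whether their tails or their amounts differed was not tested.

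RNAs that control transcription and RNA processing were among the largest rises of this group. RN7SK, the 7SK RNA that holds the elongation kinase P-TEFb inactive, was 7.64 and 7.73 at 37 °C and 13.58 and 13.63 at 46 °C. RMRP, the RNA of the ribosomal RNA processing enzyme RNase MRP, read 6.25 and 6.19 at 37 °C, not above background, against 10.66 and 10.38 at 46 °C, at least 17.38-fold higher. RPPH1, the RNA of the tRNA processing enzyme RNase P, went from 7.55 and 7.42 to 11.16 and 10.96 (3.58 ± 0.14). In all 3 the hyperthermia arrays lay far above the controls. Of 18 genes for the proteins of these particles, none rose and 1 fell (0 and 7 at an unadjusted p under 0.05). It was CDK9, the kinase of P-TEFb, with a change of -0.60 ± 0.13, a call that was lost without control 2 (adjusted p = 0.119), hyperthermia 1 (0.222) or hyperthermia 2 (0.0715).

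RNAs of both spliceosomes rose. RNU1-1, a U1 RNA whose near-identical copies share its signal, went from 9.23 and 9 to 12.19 and 12.11 (3.04 ± 0.15). RNU6ATAC, of the minor spliceosome, went from 6.61 and 6.59 to 11.02 and 11.01 (4.41 ± 0.14). The U1 copies RNVU1-7 and RNU1-3 rose by 2.86 ± 0.13 and 2.83 ± 0.13. Smaller rises were those of RNU4-2 (1.44 ± 0.15) and RNU5A-1 (0.97 ± 0.13). RNU2-1 rose from below background (0.62 ± 0.12), at least 1.335-fold, and was called with 1 of the 4 leave-outs. RNU5D-1, a U5 RNA, did not pass (0.28 ± 0.15). Of 15 small nuclear RNAs in the RefSeq gene classes, 14 rose, a class that also holds RN7SK. GEMIN4 and GEMIN6 of the SMN complex, which builds small nuclear ribonucleoproteins, fell. GEMIN4 went from 10.90 and 10.95 to 9.52 and 9.54 (-1.40 ± 0.13), and GEMIN6 fell by 0.87 ± 0.13. The other 17 of the 19 members of that list were not called.

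Cytoplasmic and ribosomal RNAs were split. RNA5S9, a 5S ribosomal RNA, went from 8.01 and 7.78 to 13.42 and 13.43. The large ribosomal RNAs rose less, RNA18SN5 by 2.70 ± 0.13 and RNA28SN5 by 1.65 ± 0.12, the latter from 12.45 and 12.5 to 14.2 and 14.06. The vault RNA VTRNA1-1 went from 6.81 and 6.45 to 9.96 and 9.85 (3.27 ± 0.16), and the Y RNA RNY1, which binds the Ro60 protein, from 8.04 and 7.5 to 10.78 and 10.73 (2.98 ± 0.20). In contrast, RNY3 (0.32 ± 0.13), the signal recognition particle RNA RN7SL1 (0.30 ± 0.14) and the vault RNA VTRNA2-1 (0.09 ± 0.15) did not pass. RN7SL1 was already at 13.58 and 13.26 at 37 °C, and VTRNA2-1 was above background on no A2780 array. Of 63 cytosolic ribosomal protein genes, 0 were called in either direction (5 higher and 2 lower at an unadjusted p under 0.05). Many were already very bright at 37 °C, such as RPL3 (13.93 and 13.86). A ceiling was not tested for, either in these genes or in RN7SL1 and RNA28SN5.

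Small nucleolar RNAs went both ways. Of 125 box C/D RNAs, which guide RNA methylation, 22 rose and 5 fell. Of 86 box H/ACA RNAs, which guide pseudouridylation, 9 rose and 6 fell. Under median scaling the counts were 13 and 22 for the first class and 7 and 17 for the second, so the balance turned. The independently transcribed U3 and U13 RNAs led: SNORD3A (U3) went from 8.67 and 8.52 to 11.11 and 10.83 (2.37 ± 0.13), and SNORD13 (U13) from 6.76 and 6.54 to 9.55 and 9.46 (2.86 ± 0.20). SNORA63 rose by 1.49 ± 0.13. SNORA12 fell most of all genes tested, from 8.84 and 8.24 to 6.85 and 6.59 (-1.82 ± 0.18, adjusted p = 1.7e-05). None of 19 small Cajal body RNAs was called (3 higher and 1 lower at an unadjusted p under 0.05).

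**Figure D3:**
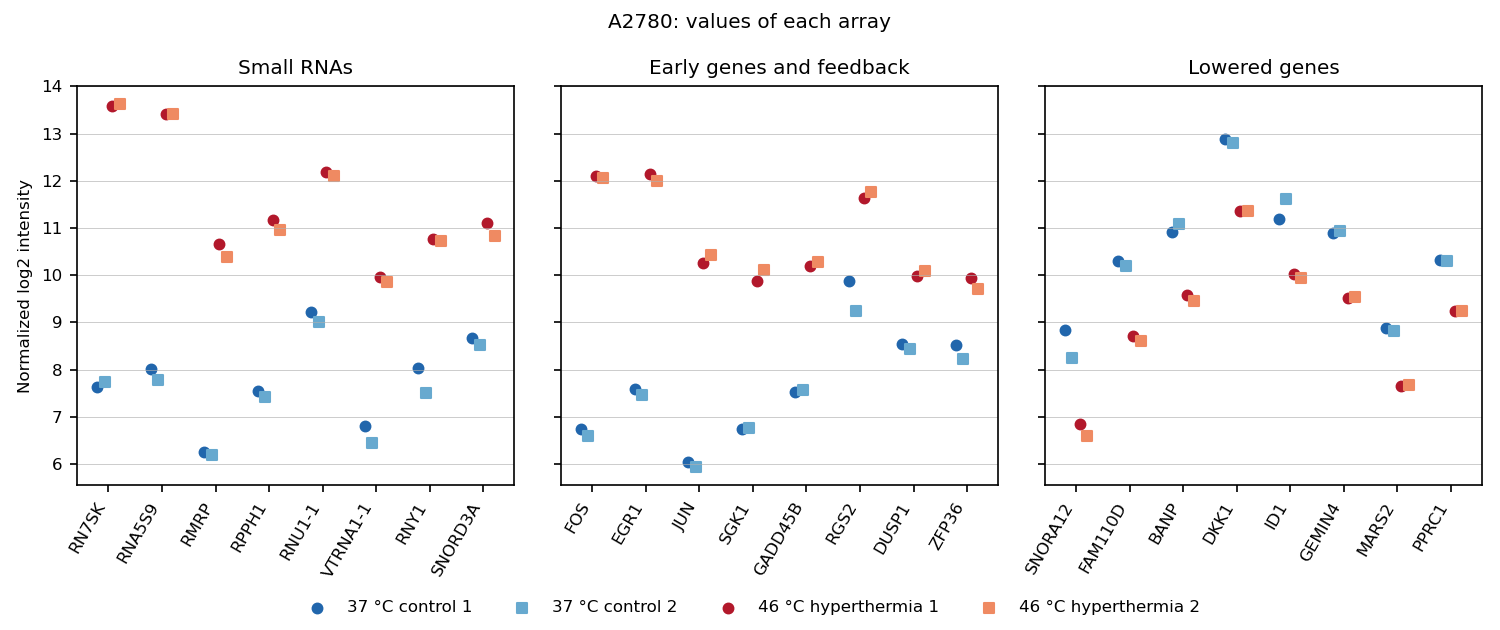
Normalized log2 intensity of 8 small RNAs, 8 early and feedback genes and 8 lowered genes on each A2780 array, with circles for replicate 1 and squares for replicate 2 (blue 37 °C, red and orange 46 °C). In every gene shown the 2 temperatures do not overlap, as in every called gene. The gaps are wider in the raised genes than in the lowered ones.

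Some immediate early genes rose strongly and others did not pass. Of 16 AP-1 family genes, 5 rose and none fell (5 and 1 at an unadjusted p under 0.05): FOS, JUN, FOSB, MAFF and ATF3. FOS went from 6.73 and 6.59 to 12.10 and 12.06. JUN, not above background at 37 °C, reached 10.27 and 10.42, at least 15.4-fold higher. The family did not move as 1 block, since JUNB (0.03 ± 0.14), JUND (0.02 ± 0.15), FOSL1 (0.19 ± 0.20) and FOSL2 (0.01 ± 0.12) did not pass. FOSB went from 7.80 and 7.30 to 11.22 and 10.91 (3.52 ± 0.17), and MAFF (1.19 ± 0.17) and ATF3 (1.11 ± 0.13) rose less.

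Of 33 other immediate early genes, 15 rose and 1 fell, with a median change of 0.488. EGR1, a zinc finger factor, went from 7.59 and 7.47 to 12.14 and 11.99 (4.54 ± 0.13). SGK1, a kinase that controls ion channels and survival, went from 6.74 and 6.77 to 9.88 and 10.11 (3.24 ± 0.13), and its other probes gave 2.83 and 3.02. GADD45B, an activator of stress kinases, went from 7.52 and 7.57 to 10.20 and 10.28 (2.70 ± 0.13). IER3 (1.90 ± 0.13) and IER5 (1.83 ± 0.12), a regulator of HSF1, rose as well. PIM1, a survival kinase named after its value was seen, fell from 8.72 and 9.28 to 8.01 and 7.93 and was called with 1 of the 4 leave-outs.

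Inhibitors of the same kinase pathways were mixed. Of 21 MAP kinase phosphatases and pathway inhibitors, 5 rose and 1 fell. RGS2, which shuts off G protein signals, went from 9.88 and 9.24 to 11.64 and 11.77 (2.15 ± 0.20). DUSP1, the phosphatase of p38 and JNK, went from 8.54 and 8.44 to 9.98 and 10.09 (1.55 ± 0.12), and the nuclear ERK phosphatase DUSP5 from 7.72 and 7.43 to 9.23 and 9.17 (1.62 ± 0.13). ERRFI1, an inhibitor of the EGF receptor, rose by 1.18 ± 0.16. SPRY4, an inhibitor of receptor signalling, fell by 0.72 ± 0.14, but was not called without control 2 (adjusted p = 0.0778) or hyperthermia 2 (0.14). Its other probes gave -0.99, -0.08 and -0.20, of which the first passed (adjusted p = 0.00256). ZFP36, which speeds the decay of AU-rich early messages, went from 8.51 and 8.23 to 9.94 and 9.70 (1.45 ± 0.14).

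The integrated stress response rose in some members. Of 30 genes of its ATF4 branch, 6 rose and 1 fell, with a median of 0.12. PPP1R15A, the inducible subunit that brings a phosphatase to eIF2α, went from 8.22 and 8.07 to 11.54 and 11.33 (3.29 ± 0.14). Its constitutive counterpart PPP1R15B went the other way, from 8.89 and 8.51 to 8.04 and 8 (-0.68 ± 0.14), and was called with 1 of the 4 leave-outs. The secreted glycoprotein gene STC2 went from 8.43 and 8.10 to 10.29 and 10.33 (2.04 ± 0.14). CHAC1, which degrades glutathione, went from 6.31 and 6.55 to 8.45 and 8.39 (1.99 ± 0.15). DDIT3 (CHOP) rose by 0.66 ± 0.16 and was called with 2 of the 4 leave-outs.

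ER and oxidative stress genes rose in single members. In the list of 29 ER chaperones and unfolded protein response genes, 2 rose and 2 fell. HSPA5 (BiP), the main ER chaperone, went from 9.34 and 9.20 to 11.11 and 11 (1.79 ± 0.15). DNAJB9 (0.89 ± 0.18), SYVN1 (-0.57 ± 0.14) and EDEM1 (-0.48 ± 0.13) each kept their call with at most 1 of the 4 leave-outs. Of 18 NRF2 targets and metallothioneins, HMOX1, the haem-degrading enzyme, rose by 0.95 ± 0.14 and none fell (2 and 0 at an unadjusted p under 0.05). That call was lost with median scaling (adjusted p = 0.108). Of 24 p53 targets, GADD45A rose by 1.05 ± 0.13 and SESN1 fell by 0.70 ± 0.16. The SESN1 call was kept with 1 of the 4 leave-outs. The p53 target and cell cycle inhibitor CDKN1A was 9.96 and 10.28 at 37 °C and 10.16 and 10.24 at 46 °C, with values that overlap. Of 27 hypoxia and glycolysis genes, the vasodilator peptide gene ADM went from 8.65 and 8.33 to 11.06 and 10.85 (2.47 ± 0.15). HILPDA, a lipid droplet protein gene of the same list, fell by 0.93 ± 0.18, and without hyperthermia 1 (adjusted p = 0.0559) or hyperthermia 2 (0.104) it was not called.

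**Figure D4:**
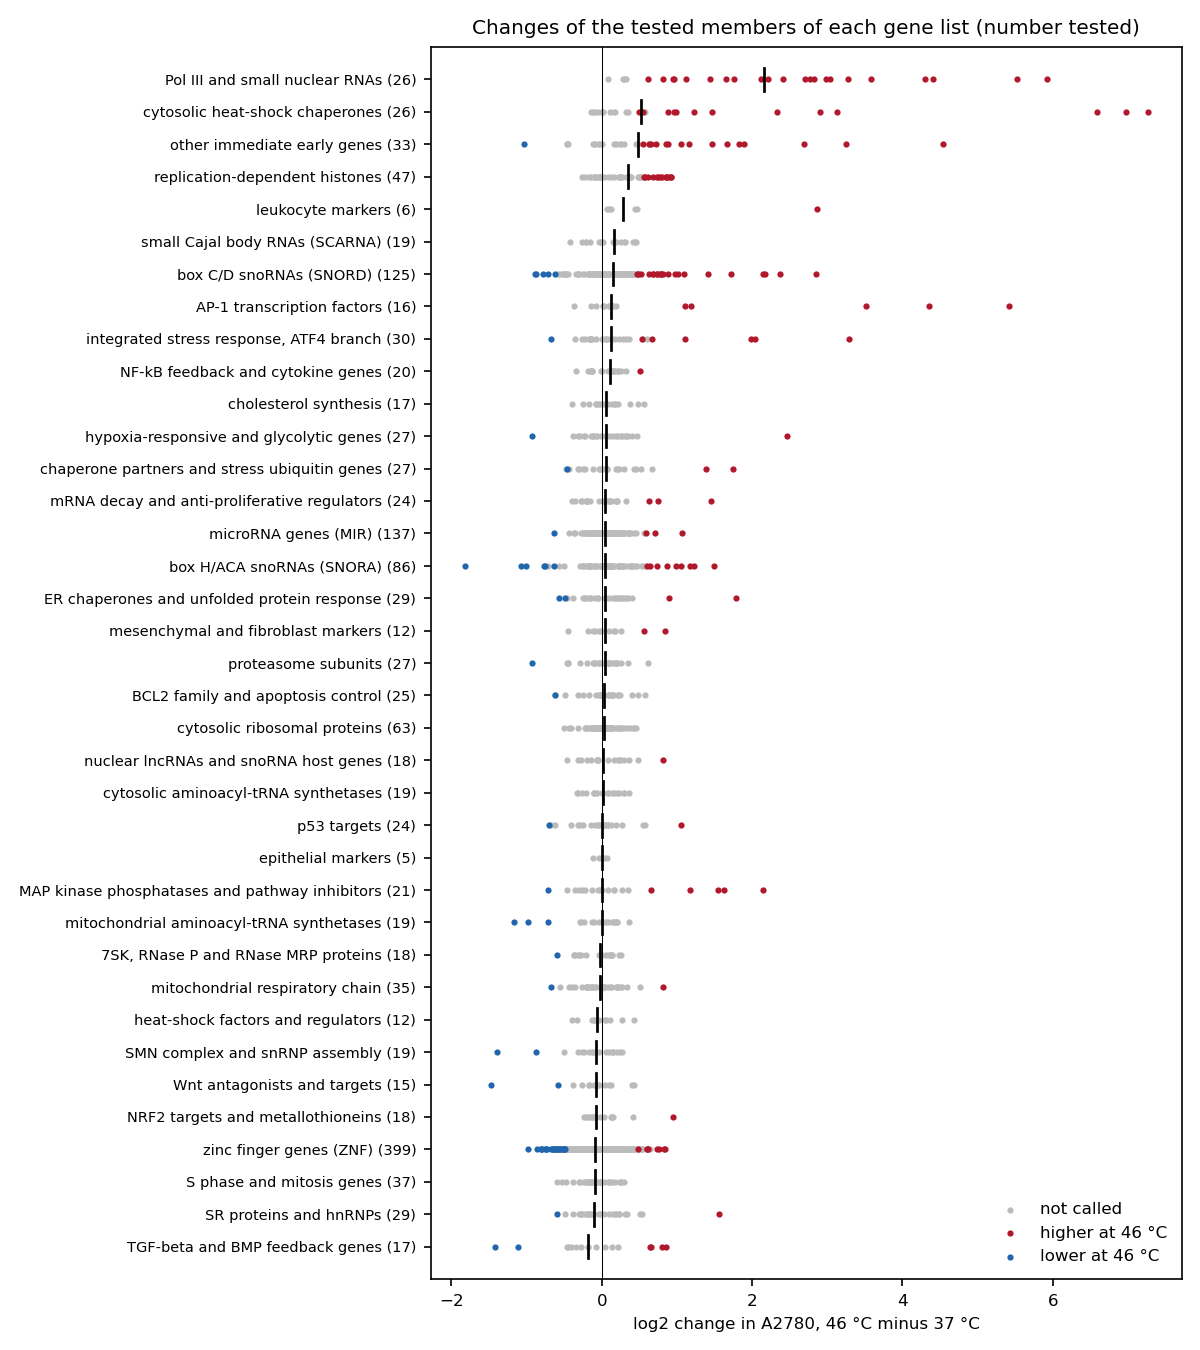
Each row is a gene list with the number of members tested in A2780, each point a member's log2 change at 46 °C, and the vertical tick the median of the list. The list of RNA polymerase III transcripts and small nuclear RNAs has the highest median, 2.16, and most lists have medians close to 0 with a few members far out.

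Promoters of 5 genes are shown because their genes stand for the chaperone, AP-1, early, stress response and lowered groups. Each runs from 200 bases before the RefSeq transcription start to 10 bases from it (GRCh38.p14), on the strand of the gene. The windows are HSPA6 at chr1:161524340-161524549 (plus strand), JUN at chr1:58784038-58784247 (minus), EGR1 at chr5:138465279-138465488 (plus), PPP1R15A at chr19:48872221-48872430 (plus) and DKK1 at chr10:52314081-52314290 (plus). Capitals mark GAANNTTC or TTCNNGAA, the paired units of a heat-shock element, TGACGTCA, the full CRE site of the ATF and CREB family, TATAAA, and the CArG box bound by serum response factor.
HSPA6: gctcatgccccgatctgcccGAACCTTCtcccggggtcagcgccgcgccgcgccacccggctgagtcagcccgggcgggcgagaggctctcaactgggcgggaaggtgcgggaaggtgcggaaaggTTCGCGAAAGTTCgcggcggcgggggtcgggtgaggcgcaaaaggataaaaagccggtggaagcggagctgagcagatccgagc
JUN: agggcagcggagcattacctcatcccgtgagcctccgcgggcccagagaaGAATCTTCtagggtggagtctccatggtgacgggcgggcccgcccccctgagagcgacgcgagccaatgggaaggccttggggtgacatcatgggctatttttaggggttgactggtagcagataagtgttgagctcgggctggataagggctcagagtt
EGR1: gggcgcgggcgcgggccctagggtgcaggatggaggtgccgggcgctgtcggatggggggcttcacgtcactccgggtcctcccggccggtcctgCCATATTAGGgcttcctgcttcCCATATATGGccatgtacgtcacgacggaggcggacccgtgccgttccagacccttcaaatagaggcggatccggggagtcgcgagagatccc
PPP1R15A: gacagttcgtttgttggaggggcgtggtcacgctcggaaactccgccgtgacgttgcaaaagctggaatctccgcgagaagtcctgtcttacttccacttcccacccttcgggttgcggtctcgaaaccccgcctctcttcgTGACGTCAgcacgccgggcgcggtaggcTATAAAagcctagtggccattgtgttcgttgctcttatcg
DKK1: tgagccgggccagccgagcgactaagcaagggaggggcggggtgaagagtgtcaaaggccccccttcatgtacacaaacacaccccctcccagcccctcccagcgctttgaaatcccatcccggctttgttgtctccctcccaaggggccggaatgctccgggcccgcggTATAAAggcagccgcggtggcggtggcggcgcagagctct
In HSPA6 the pair TTCNNGAA starts 74 bases before the start site and overlaps a GAANNTTC pair at 69, and another GAANNTTC pair lies at 180. JUN holds 1 GAANNTTC pair at 150. EGR1 holds CArG boxes at 105 and 83. PPP1R15A holds TGACGTCA at 58 and TATAAA at 30, and DKK1, which fell, also holds TATAAA at 30. These are matches of letters and show no binding.

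Promoter letters were counted on both strands, from 250 bases before to 50 after the RefSeq start, for protein-coding genes. TATAAA was present in 47 of 212 promoters of genes that rose (22.2%), in 7.48% of those that fell and in 6.66% of those not called. Without histone and chaperone genes it was in 31 of 187 that rose (16.6%). In the whole RefSeq table of 27305 promoters the share was 12%. GAANNTTC was in 8.49%, 3.54% and 4.85% of the promoters of genes that rose, fell and were not called. In the same order TTCNNGAA was in 8.02%, 5.51% and 6.1%, TGACGTCA in 6.6%, 3.15% and 3.15%, and TGANTCA in 5.19%, 2.76% and 4.67%. Without histone and chaperone genes the shares among rises were 5.88% for GAANNTTC, 8.56% for TTCNNGAA, 5.88% for TGACGTCA and 5.35% for TGANTCA. In the whole RefSeq table they were 6.87%, 7.84%, 1.98% and 7.76%. A run of 3 alternating heat-shock units was in 1 promoter of the 212 that rose (0.472%), that of HSPA6, in 0.394% of those that fell and in 0.31% of those not called. These shares are descriptions without a test, and the groups also differ in level.

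Called genes had shorter median spans than the rest, as a description without a test. The median genomic span of the protein-coding genes was 12599 bases for those that rose, 16142 for those that fell and 29149 for those not called. Spans under 5 kb made up 30.4%, 19.7% and 10.6%. Among the genes called with every A2780 array left out in turn, the median spans were 7184 for rises and 6928 for falls.

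Replication-dependent histone genes, whose messages normally end in a stem-loop and not in poly(A), rose in part. Of 47 tested, 14 rose and none fell (25 and 0 at an unadjusted p under 0.05), with a median of 0.344. H3C13 went from 7.60 and 7.63 to 8.63 and 8.45 (0.92 ± 0.15), and H4C8 from 6.74 and 6.81 to 7.74 and 7.66 (0.92 ± 0.14). Near-identical copies of these genes share probe signal. The group depends on the scaling: with median scaling 7 rose and 2 fell, and without normalization 2 rose and 3 fell with a median of -0.0106. None of 37 S phase and mitosis genes was called (1 higher and 6 lower at an unadjusted p under 0.05).

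Some large rises lay outside every stress list. RIMBP3 went from 6.53 and 6.37 to 10.83 and 10.78, but its other probe changed by only 0.38 (adjusted p = 0.244). HBEGF, a growth factor that activates the EGF receptor, went from 6.98 and 6.83 to 9.59 and 9.49 (2.64 ± 0.13). MYLIP, a ubiquitin ligase that degrades the LDL receptor, went from 8.04 and 7.63 to 10.11 and 9.92 (2.18 ± 0.16). RASD1, a small GTPase, rose from below background at least 4.327-fold. HBEGF, MYLIP and RASD1 were singled out after their values were seen.

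CD14 stood out among the leukocyte markers. It was 6.37 and 6.36 at 37 °C, not above background, and 9.37 and 9.09 at 46 °C, at least 7.096-fold higher, while its other probe gave 0.87 (adjusted p = 0.00992). Of 11 leukocyte markers on the array, 7 were above background on no A2780 array, among them PTPRC, CD3E and LYZ. CD68 was above it on all 4 and did not pass, at 10.41 and 10.33 and then 10.61 and 10.38. The summed log2 level of all 11, most of it CD68, went from 11.03 and 10.97 to 11.53 and 11.36. Of the erythroid markers HBA2 rose by 0.97 ± 0.12, with 0.13 for its other probe.

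The falls were smaller than the rises. DKK1, a secreted Wnt antagonist, went from 12.89 and 12.79 to 11.36 and 11.37 (-1.48 ± 0.12, adjusted p = 3.16e-06), and its other probe also gave -1.48. CCND1, cyclin D1 and a Wnt target, fell by 0.58 ± 0.13 but was called with 1 of the 4 leave-outs. ID1 and ID3, inhibitors of helix-loop-helix factors and BMP targets, fell: ID1 from 11.19 and 11.62 to 10.03 and 9.95, and ID3 from 13.22 and 13.66 to 12.28 and 12.36 (-1.12 ± 0.15). Their relative ID2 moved the other way (0.65 ± 0.12), a call lost with median scaling (adjusted p = 0.0522), and the other probe of ID1 gave -0.17. FAM110D went from 10.29 and 10.20 to 8.71 and 8.61 (-1.59 ± 0.14). BANP, a nuclear matrix protein gene, fell by 1.49 ± 0.13, and its other probes gave -0.46 and -0.83.

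The lowered genes included mitochondrial enzymes of translation. Of 19 mitochondrial aminoacyl-tRNA synthetases, 3 fell and none rose (5 and 1 at an unadjusted p under 0.05). MARS2 went from 8.88 and 8.81 to 7.66 and 7.68 (-1.17 ± 0.12), PARS2 fell by 0.71 ± 0.12 and TARS2 by 0.99 ± 0.20. TARS2 was 8.37 and 9.13 in the controls, and without control 2 its change was -0.60 (adjusted p = 0.0906). None of the 19 cytosolic synthetases was called (1 higher and 1 lower at an unadjusted p under 0.05). PPRC1, a coactivator of mitochondrial biogenesis, went from 10.33 and 10.29 to 9.23 and 9.24 (-1.07 ± 0.12). RPUSD2, a pseudouridine synthase, fell by 1.06 ± 0.13, BCDIN3D, an RNA methyltransferase, by 1.12 ± 0.13, and PPAN, a ribosome assembly factor, by 1.12 ± 0.19.

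The other large falls were in CCDC71 (-1.44 ± 0.17), HPS6 (-1.23 ± 0.14), of lysosome-related organelle assembly, FJX1 (-1.17 ± 0.13), SLC61A1 (-1.15 ± 0.15) and SNORA24 (-1.07 ± 0.15). GATD1 was 8.60 and 9.27 in the controls and 7.94 and 7.70 at 46 °C, was not called without control 2 (adjusted p = 0.107), and its other probe gave 0.15. AMD1, of polyamine synthesis, fell by 1.1 ± 0.18 and was not called without hyperthermia 1 (adjusted p = 0.0603). D2HGDH, a mitochondrial dehydrogenase, fell by 1.18 ± 0.13 with 0.06 for its other probe. Zinc finger genes had 25 of 399 members lower and 8 higher, against 325 lower and 316 higher of all 14189 genes. Both zinc finger counts were lower without control 2, as were those over all genes.

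The remaining lists are read beside the background of 2.23% higher and 2.29% lower. Of 25 BCL2 family and apoptosis control genes, none rose (3 at an unadjusted p under 0.05) and XIAP, a caspase inhibitor, fell by 0.62 ± 0.13. Of 27 proteasome subunits 1 fell, PSMB4, from 12.32 and 12.60 to 11.36 and 11.69. Of 35 respiratory chain genes, UQCRB rose by 0.82 ± 0.20 and SDHA fell by 0.67 ± 0.14. Each of XIAP, UQCRB and SDHA was called with 1 of the 4 leave-outs. Of 20 NF-kB feedback genes, NFKBIZ alone was called, higher by 0.51 ± 0.13, and it lost that call with each A2780 array left out.

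Of 17 TGF-beta and BMP feedback genes, 4 rose (23.5%) and 2 fell (11.8%), and under median scaling 0 rose and 9 fell (HEY1, BAMBI, ID2 and SMAD7 lost their calls). Of 29 SR proteins and hnRNPs, the splicing kinase gene CLK1 went from 9.32 and 8.93 to 10.60 and 10.77 (1.56 ± 0.20). HNRNPA3 of that list fell by 0.60 ± 0.13 and was called with 1 of the 4 leave-outs. Of 137 microRNA genes 3 rose and 1 fell, with MIR320A going from 6.23 and 6.41 to 7.57 and 7.20 (1.07 ± 0.15). Of 24 mRNA decay and anti-proliferative regulators, 3 rose (12.5%): ZFP36, ZFP36L1 and BTG3, the last 2 called with 1 and 2 of the 4 leave-outs. Of 18 nuclear long RNAs and snoRNA hosts, ZFAS1 rose by 0.81 ± 0.14, with 0.02 for its other probe. None of 17 cholesterol synthesis genes was called (3 higher and 0 lower at an unadjusted p under 0.05).

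The response of A2780 was then set against that of SKOV3. In SKOV3, 451 genes (3.18%) were called. Of the 316 genes that rose in A2780, 143 rose in SKOV3 too, 45.3% of the A2780 list and 67.1% of the 213 rises in SKOV3. Of the 325 that fell, 106 fell in both, 32.6% of the A2780 list and 44.5% of 238. None was called in opposite directions (5 of the rises and 2 of the falls did so at an unadjusted p under 0.05 in SKOV3). The difference between the responses passed the limma test in 14 genes, 0.0987% of those tested: 10 with a higher and 4 with a lower response in A2780.

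STC2 had the lowest p for the difference. It was 8.72 and 8.61 in SKOV3 at 37 °C and 8.62 and 8.61 at 46 °C, so it did not pass there, and the A2780 response exceeded that of SKOV3 by 2.10 ± 0.19 (adjusted p = 0.000784). DKK1 was at 6.42 to 6.54 on the SKOV3 arrays, whose background level was 6.47 to 6.49, against 12.89 and 12.79 in the A2780 controls, and its response was lower in A2780 by 1.56 (-1.56 ± 0.17, adjusted p = 0.00211). As neither SKOV3 control was above background for DKK1, a fall could not be seen in SKOV3. For this gene the test cannot tell whether the responses of the lines differ. IER3 was 8.43 and 8.52 in SKOV3 at 37 °C and 8.79 and 8.58 at 46 °C, a difference in response of 1.68 ± 0.19. EGR1 rose in both lines to about the same brightness, 12.14 and 11.99 in A2780 and 11.94 and 12.04 in SKOV3, from lower controls in A2780, and differed by 1.56 ± 0.18. STC2, DKK1, IER3 and EGR1 were called with each A2780 array left out in turn. Without SKOV3 control 1, EGR1 was not called. With median scaling 2 genes were higher and 12 lower in A2780. That setting kept 6 of the 14, STC2, DKK1, DHDH, RGS16, CDKN1A and SNORA12, while all 14 kept their sign.

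**Figure D5:**
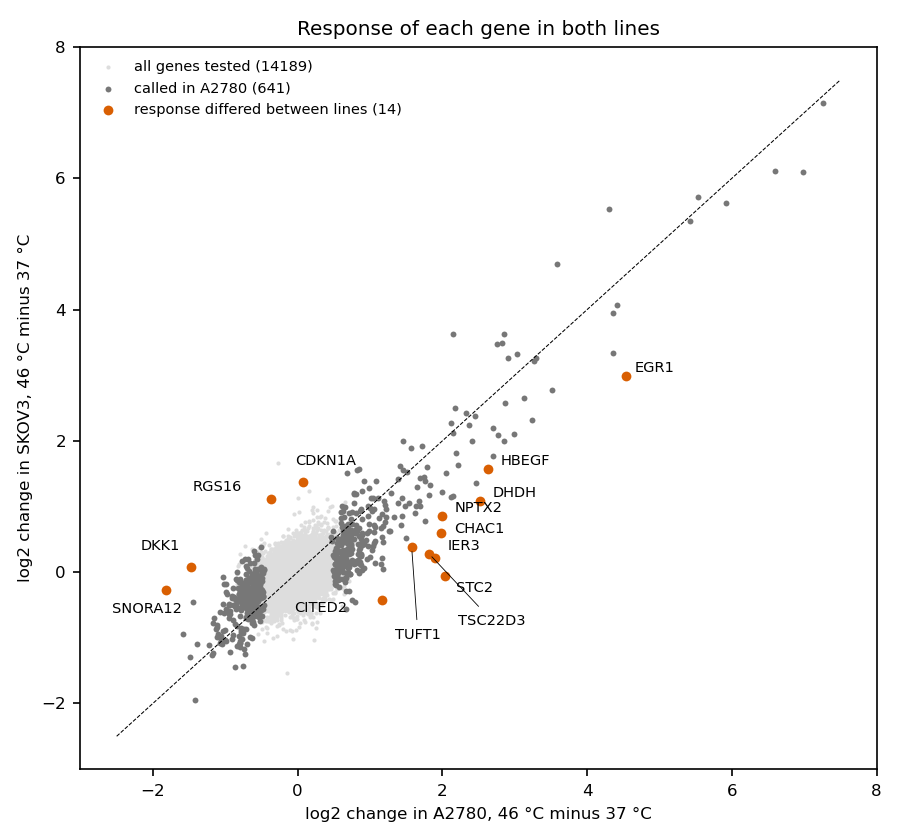
The log2 change at 46 °C in A2780 (x axis) is plotted against that in SKOV3 (y axis) for 14189 genes, with the dashed line marking equal responses. The 14 genes that passed the test of the difference (orange, named) lie off the line, 10 below it and 4 above it.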

How the data were processed

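Total RNA of A2780 and SKOV3 cells was measured on Illumina BeadChips of 47231 probes. Per the submitters' processing notes, signals were exported with BeadStudio, whose version is not given in the sources used here. The deposited table holds linear probe intensity, without normalization between arrays. A second deposited table holds the authors' log2 values of the same arrays, whose steps are not described. The arrays' number limits the precision.

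Intensities were corrected with normexp (offset 50), quantile-normalized and put on the log2 scale with limma 3.58.1 in R 4.3.3. The platform annotation gave 1 symbol for 30113 probes, several for 8 and no entry for 17110; 30074 of the 30121 annotated probes had an identifier in the table of gene names. Probes at or under the 40th percentile of the mean (6.16) were dropped. Each gene was read from its brightest remaining probe, for 14189 genes, of which 4032 had further probes. Background on an array was taken at the 99th percentile of a normal curve fitted to the lower side of its signals. Where neither array of a group was above it, a fold is a lower bound against that level.

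A 4-group limma model of all 8 arrays (4 residual and 9.4 prior degrees of freedom) gave two-sided tests with Benjamini-Hochberg adjustment over all genes and a threshold of 0.05. Replicate numbers were not treated as pairs. Lists are described by counts and medians. The members and lists were chosen with earlier results of these data known. Named genes were the 4 checks HSPA1A, HSPA1B, HSPA6 and DNAJB1, the 20 largest rises outside the heat-shock chaperone list and the 20 largest falls. Up to 5 called members of each list were added. Clone and LOC names were left out. Others were named to complete a count, or after their values were seen, as were the members described as not passing. Alternatives were the authors' values, background floor, scaling, filters, prior, array weights, a replicate block, A2780 arrays alone, other probes and each array left out. The steps from the model onward were tested on simulated data. Genomic spans, classes and promoters came from RefSeq tables on GRCh38.p14.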

Additional observations from a re-analysis of the deposited data

Results flagged for a closer look

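The responses of 14 genes differed between A2780 and SKOV3 by the test of the difference itself. These are all the genes that passed it. Beside STC2 (2.10), DKK1 (-1.56), IER3 (1.68) and EGR1 (1.56), whose values stand above, 7 more had the stronger rise in A2780. The dehydrogenase gene DHDH went from 6.26 and 6.20, below background, to 8.85 and 8.66 in A2780 and rose by 1.08 in SKOV3, a difference of 1.44 ± 0.18 (limma adjusted p = 0.0055). CITED2, which competes for the coactivators CBP and p300, rose by 1.16 in A2780 and changed by -0.42 in SKOV3, a difference of 1.58 ± 0.20. TSC22D3, a glucocorticoid-induced leucine zipper gene, rose from 8.15 and 7.84 to 9.98 and 9.64 in A2780 and changed by 0.28 in SKOV3, a difference of 1.54 ± 0.22. CHAC1 differed by 1.39, TUFT1 by 1.20, the neuronal pentraxin gene NPTX2 by 1.15 and HBEGF by 1.06.

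Another 3 had the lower response in A2780. CDKN1A was at 6.68 and 6.64 in SKOV3 at 37 °C and rose by 1.38 there, while in A2780 it changed by 0.08, a difference of -1.30 ± 0.19 (limma adjusted p = 0.0189). RGS16, a G protein regulator, rose by 1.12 in SKOV3 and changed by -0.36 in A2780, a difference of -1.48 ± 0.22. SNORA12 fell by 1.82 in A2780 and changed by -0.27 in SKOV3, a difference of -1.55 ± 0.25. Its SKOV3 controls were 6.47 and 6.5 at a background level of 6.47, so a fall from there could hardly be seen. For SNORA12, as for DKK1, the test cannot tell whether the responses of the lines differ. DHDH, CITED2 and TSC22D3 were called with 3 of the 4 A2780 arrays left out, RGS16, CHAC1 and SNORA12 with 2, and CDKN1A, TUFT1, NPTX2 and HBEGF with 1, the one without control 1.

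Some of these differences rest on values at background and have no exact size: DHDH and NPTX2 were above it on 0 of 2 A2780 controls and CHAC1 on 1 of 2, NPTX2, CHAC1 and DKK1 on 0 of 2 SKOV3 controls, and SNORA12 on 1 of 2 SKOV3 controls and 0 of 2 SKOV3 hyperthermia arrays.

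Probes without a gene name were outside the comparisons. Of 8792 that passed the filter, the same limma test called 149 higher at 46 °C in A2780 and 85 lower. Among the 14189 genes tested it called 316 higher and 325 lower.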

How the results depend on the processing

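The 641 calls became 600 with the authors' log2 values and 597 with a floor of 16, and 554 and 548 of the 641 were kept. With median scaling there were 4590, without normalization between arrays 5322, and with median scaling but no control 2 there were 1694. Equally numbered A2780 samples deviated together at a correlation of 0.0727, so the numbers were not taken as pairs; a replicate block gave 487 (256 higher, 231 lower), with 468 of the 641 kept, and 10 differences between the lines, 9 of them among the 14. The share of calls that were higher was 49.3%, and 54.9% with the A2780 arrays alone, 4.16% with median scaling and 2.42% without normalization. It was 57.4%, 62.1% and 68.3% without control 2, hyperthermia 1 and hyperthermia 2. Leaving out 1 array at a time gave 240 to 1153 calls in A2780 and 3 to 133 differences between the lines. The highest counts, 1153 and 133, came without A2780 control 1, and the lowest without hyperthermia 1 (240) and without SKOV3 control 1 (3). The 14 differences became 8 without normalization, 27 without the filter, 27 with array weights and 38 with median scaling and no control 2. Signs turned for NFKBIZ with median scaling (-0.034) and without normalization (-0.14), for CDH2 without normalization (-0.0739), and at other probes of D2HGDH (0.0572), GATD1 (0.15) and ZNF626 (-0.17). Of the 113 genes named by the rule, 72 kept call and direction under every setting run, other probes aside; 14 lost or turned theirs with median scaling, 23 without control 2 and 16 at another probe. The causes were not tested. The fits without a filter, with the 60th percentile, with array weights, with the trended prior and with genes above background on 2 or more A2780 arrays were chosen for the differences after seeing the data, as was the last for the calls (655).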

Other observations

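Genes of the VCX family, germ cell genes on the X chromosome with near-identical copies that share probe signal, rose from below background in A2780. VCX went from 5.69 and 5.99 to 8 and 7.92, at least 2.95-fold higher, VCX3A from 6.11 and 6.33 to 8.42 and 8.02, at least 3.533-fold, and VCX2 from 6.24 and 6.17 to 7.86 and 7.84, at least 2.731-fold. The liver gene ALB, above background on both control arrays, went from 6.90 and 6.71 to 8.85 on each hyperthermia array (2.04 ± 0.15), and ACTA1, skeletal muscle actin, rose from below background by 1.69 ± 0.16, at least 2.975-fold. SNAI1, a repressor of epithelial genes, went from 6.13 and 5.75 to 7.38 and 7.17, at least 1.832-fold higher. TMEM107, whose 3′ end overlaps a small nucleolar RNA gene, rose by 1.69 ± 0.17, and which of these its probe reads was not tested. These genes were picked after their values were seen, and each was called with every A2780 array left out in turn.

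On chromosome 20, 24 of 381 tested genes fell (6.3%), against 2.29% over all genes. It had the highest share of falls among the chromosomes. In SKOV3, 13 genes of this chromosome fell, against 238 over all genes. Without control 2 there were 6, without control 1 there were 27, and 3 were called with every A2780 array left out in turn. Over all genes the number of falls likewise went down without control 2 and up without control 1. The median change on chromosome 20 was -0.0411.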
